A study of Mus musculus with 8 samples.

Results

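Slc15a2 heads a list of 10 mouse genes for peptide and amino acid transporters, chosen by name from the 37980 genes measured in multipotent progenitors (MPPs) of the bone marrow. The list holds the peptide transporters Slc15a2, Slc15a3 and Slc15a4, the heavy chain Slc3a2 with its light chains Slc7a5 and Slc7a11, the arginine and lysine carrier Slc7a1, and the carriers of glutamine and other neutral amino acids Slc1a5, Slc38a1 and Slc38a2. Slc15a2 was put on the list because it was lower in the same comparison that is described here, so its difference is given as a description without a p-value. Of the 10 genes, 9 had enough signal to be tested and Slc7a11 did not.

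Polyadenylated RNA of 8 MPP aliquots was sequenced, each made from 1000 cells sorted from bone marrow as Lin-CD48-ckit+Sca1+CD135+CD150-. The 4 NA libraries came from C57BL/6 mice with the NUP98-HOXA10hd fusion gene (NA), in which an NA LSL/+ allele was combined with Vav-Cre, a recombinase driven by a promoter of blood cells. The 4 WT libraries came from wild-type C57BL/6 mice, and whether these carried Vav-Cre was not stated, nor were the ages of the mice. In NUP98-HOXA10hd a stretch of the nuclear pore protein NUP98 is fused to the homeodomain of HOXA10, the region that binds DNA, and the comparison addresses which transcripts differ in MPPs that carry it. The number of mice behind each library was not stated, so the p-values measure the spread between aliquots, which may be partly technical. In such bulk samples, fewer cells of a type and less RNA per cell cannot be told apart.

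Peptide and amino acid transporters set what a cell can take up for protein synthesis. Slc15a2 (PEPT2) brings di- and tripeptides through the plasma membrane together with protons, while Slc15a3 and Slc15a4 work on endosomes and lysosomes. The light chains Slc7a5 and Slc7a11 reach the cell surface only when bound to Slc3a2 (CD98 heavy chain), and glutamine taken up by carriers such as Slc1a5 can be given back by Slc7a5 in exchange for leucine, an amino acid that activates the growth kinase complex mTORC1 at the lysosome. When amino acids are short, the factor Atf4 and its C/EBP partners are known to raise many transporter genes through amino acid response elements.

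The base sequence before the start site of Slc15a2 and the known response elements of Slc7a11 are shown as the sequence context of the gene that heads the list and of the list's textbook example of an Atf4 target. The sequences are from RefSeq on GRCm38.p6, and promoters of 6 of the 10 genes were matched and used here. The 250 bases before the start of Slc15a2 (chr16:36784963-36785212, minus strand) and bases -90 to -21 before that of Slc7a11 (chr3:50443634-50443703, minus strand) are written 5′ to 3′, with motif matches in capitals.
Slc15a2: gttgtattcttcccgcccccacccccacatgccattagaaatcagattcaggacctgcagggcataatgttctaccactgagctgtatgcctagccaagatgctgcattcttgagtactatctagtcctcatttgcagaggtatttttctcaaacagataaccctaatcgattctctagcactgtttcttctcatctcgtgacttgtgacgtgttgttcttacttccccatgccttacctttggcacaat
Slc7a11: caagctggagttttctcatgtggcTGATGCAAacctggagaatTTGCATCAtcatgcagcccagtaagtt
The 300-base promoters (250 bases before to 50 after the start) were searched on both strands for TTGCATCA, a core of the amino acid response element, TGANTCA, the AP-1 motif, CACGTG, the E-box, and TGATTTAT, a motif of Hoxa9 with a TALE partner. The promoter of Slc15a2 held none of these letters, and that of Slc7a11 held the response element core on opposite strands, with first bases at -66 and -47. Among 32851 promoters of this length, 0.895% held TTGCATCA, 7.81% TGANTCA, 7.15% CACGTG and 0.977% TGATTTAT. Slc7a1 held TGANTCA at -123, and the other 5 of the 7 promoters of these 6 genes, which include that of Slc15a2, held no match. An absent match says only that these letters are not in the window.

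Values are called normalised counts here, because they appear to be expected reads already scaled by a single factor per library. The submitters labelled them raw counts. Library totals were not equal, at 4532782 to 4621121 in NA and 4243171 to 4485617 in WT, without overlap. A difference is NA minus WT on the log2(normalised count + 1) scale with its standard error (SE). Estimated depth was 3876893 to 4917008 reads, with NA4, WT2 and WT3 in a shallower class of 3876893 to 3960950 reads. Hoxa10, part of which is in the fusion, had 324 ± 32.0 counts in NA and 139 ± 8.0 in WT (SD, n = 4), a difference of 1.21. Xist was between 0.940 and 2.80 counts in NA and between 869 and 1285 in WT, and the Y-linked Ddx3y and Eif2s3y were at 281 to 668 counts in NA and at most 0.888 in WT. Sex and genotype therefore cannot be told apart in any difference given here, although no gene of the list lies on the X or Y chromosome. NA4 and WT4 were each the library of their group that lay closest to a weighted sum of the other 3, with an excess squared coefficient of variation of 0.00838 and 0.00182 against 0.00777 to 0.0371 in the other 6. If a library were not independent of the others in its group, the SDs with n = 4 and the p-values would be too small. Whether NA4 and WT4 are independent was not tested, so results are also given without NA4 and WT4. Of 11451 genes tested, 17.9% passed an adjusted p of 0.05 (limma, Benjamini-Hochberg over all tested genes), 10.1% higher and 7.87% lower in NA. Under scaling to the library total, 41.3% of the calls were higher in NA instead of 56.1%. When NA4 and WT4 were left out, 4.58% passed, 3.31% higher and 1.27% lower.

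Slc15a2 had the largest difference of the 9 tested genes of the list. It had 47.6, 27.3, 56.3 and 41.3 counts in NA1 to NA4 and 207, 132, 151 and 220.2 counts in WT1 to WT4. The 4 NA libraries lay below the 4 WT libraries with no overlap, at 43.1 ± 12.2 counts against 178 ± 42.4 (SD, n = 4). The difference was -2.03 (SE 0.25), which is 4.09-fold more in WT on this scale. It was -1.92 without NA4 and WT4 and between -2.17 and -1.83 when 1 library at a time was left out. Within the deeper libraries (NA1 to NA3, WT1 and WT4) it was -2.32, and within the shallower ones (NA4, WT2 and WT3) -1.75. The values rest on 29 to 61 estimated reads in an NA library and 117 to 248 in a WT library. The gene, ENSMUSG00000022899, lies on the minus strand at chr16:36750177-36784962 (mm10), and its promoter sequence is the one printed above.

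The endosomal relatives of Slc15a2 did not pass the test. Slc15a4, a proton-coupled carrier of histidine and small peptides (chr5:127595664-127632897, minus strand), had 76.5, 85.5, 104 and 81.5 counts in NA1 to NA4 and 106, 144, 87.7 and 131 in WT1 to WT4. The groups overlapped between WT3 and NA3, and the difference was -0.41 (SE 0.20, 95% interval -0.84 to 0.02, adjusted p = 0.171). Slc15a3 (chr19:10839727-10859362, plus strand) had 6.53, 5.64, 19.4 and 15.4 counts in NA and 13.3, 10.2, 2.28 and 10.7 in WT. With 2 to 21 estimated reads in a library, its interval of -0.95 to 1.67 around 0.36 (adjusted p = 0.718) leaves a change of either sign undetectable at this depth, and the value was -0.36 within the deeper and 1.43 within the shallower libraries. Slc15a1, the intestinal peptide transporter, had at most 1 estimated read in any library, and Slc15a5 none. On a per-length scale, where counts are divided by the kilobases of the longest annotated transcript, Slc15a2 stood at 1.15 ± 0.331 times the level of Slc15a4 in WT libraries and at 0.365 ± 0.0943 times in NA libraries. The ratio was 0.677 to 1.44 in WT and 0.234 to 0.457 in NA, without overlap, as a description that includes the gene chosen for its difference.

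**Figure D1:**
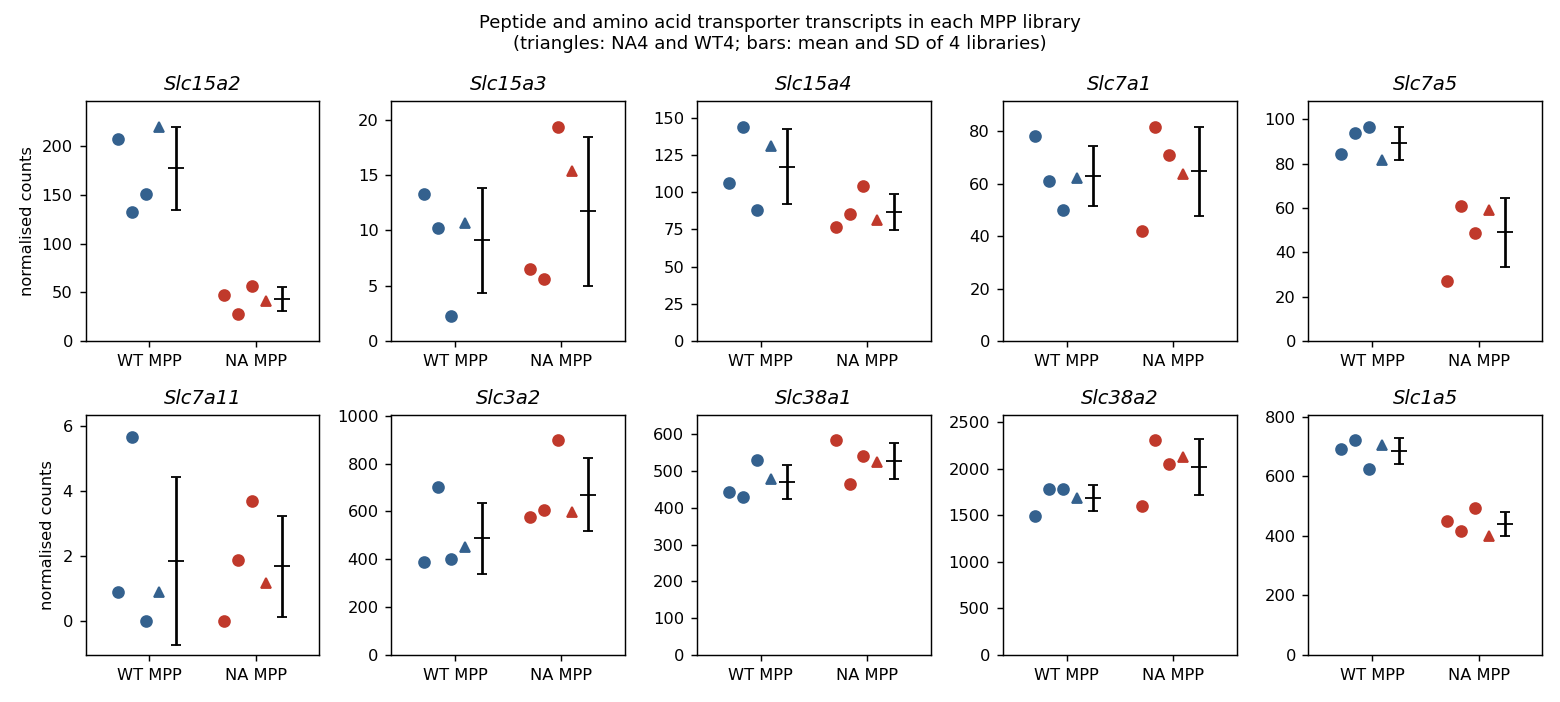
Normalised counts of the 10 transporter genes in each library (vertical axis, linear, one panel per gene), with WT MPP in blue, NA MPP in red, triangles for NA4 and WT4, and the mean and SD of 4 libraries as bars. The NA points lie apart from the WT points for Slc15a2 (27.3 to 56.3 against 132 to 220.2), Slc7a5 (27.1 to 61.1 against 81.7 to 96.8) and Slc1a5 (400.4 to 494 against 623 to 720.2), and the groups overlap for the other 7 genes.

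Slc7a5 (LAT1), the light chain that imports leucine and other large neutral amino acids, fell in NA MPPs. It had 27.1, 61.1, 48.9 and 59.1 counts in NA1 to NA4 and 84.3, 94.0, 96.8 and 81.7 counts in WT1 to WT4. NA1 was the lowest library, and the highest NA library stayed below the lowest WT library. The means were 49.0 ± 15.6 and 89.2 ± 7.32 counts (SD, n = 4), and the difference was -0.91 (SE 0.26, 95% interval -1.47 to -0.35, adjusted p = 0.0268). The call was lost without NA4 and WT4 (-1.06, adjusted p = 0.0962) and without any single one of WT1, WT2, WT3 or WT4 (adjusted p from 0.0501 to 0.0601). Within the deeper libraries the difference was -0.92 and within the shallower ones -0.68. Slc7a5 (chr8:121881150-121907694, minus strand) overlaps Gm20388 on the opposite strand, which had 280.3 to 413 counts in NA and 313 to 461 in WT. The library kit does not mark strand, so reads of the overlap cannot be told apart.

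Slc3a2, the heavy chain that carries Slc7a5 to the surface, did not pass the test. It had 577, 604, 897 and 599 counts in NA1 to NA4 and 389, 704, 403 and 451 in WT1 to WT4. WT2 lay above 3 of the NA libraries, and NA3 was the highest of all. The difference was 0.48 (SE 0.18, 95% interval 0.09 to 0.87, adjusted p = 0.0830), and it passed only when WT2 was left out (0.67, adjusted p = 0.00897). Per length, the ratio of Slc7a5 to Slc3a2 was 0.0602 ± 0.0228 in NA libraries and 0.154 ± 0.0372 in WT libraries, with ranges of 0.0375 to 0.0809 and 0.107 to 0.192. The values of Slc7a5 alone did not overlap between the groups, while those of Slc3a2 did, so this ratio is no separate result. Slc3a2 lies at chr19:8706882-8723369 on the minus strand.

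Slc7a11 (xCT), which imports cystine in exchange for glutamate, was hardly detected in MPPs of either genotype. It had 0, 1.88, 3.69 and 1.18 counts in NA1 to NA4 and 0.888, 5.66, 0 and 0.888 in WT1 to WT4. At 0 to 4 estimated reads in an NA library and 0 to 5 in a WT library, no difference was detectable at this depth and no fold is given. The response elements shown above lie before this gene, which is at chr3:49892526-50443614 on the minus strand.

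Slc7a1 (CAT1), the plasma membrane carrier of arginine and lysine, had 42.0, 81.8, 71.1 and 63.8 counts in NA1 to NA4 and 78.1, 61.2, 50.1 and 62.1 in WT1 to WT4. The groups covered the same range, with means of 64.7 ± 16.8 and 62.9 ± 11.5 counts (SD, n = 4). The difference of 0.02 (SE 0.25, adjusted p = 0.972) has an interval of -0.52 to 0.55, so a change of less than that size could have been missed. The gene lies at chr5:148327410-148399904 on the minus strand.

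Among the glutamine carriers, Slc1a5 fell in NA MPPs, and Slc38a1 and Slc38a2 did not pass the test. Slc1a5 (ASCT2), a sodium-dependent exchanger of glutamine and other neutral amino acids, had 449, 415, 494 and 400.4 counts in NA1 to NA4 and 692, 720.2, 623 and 705 counts in WT1 to WT4. Every NA library was below every WT library, with means of 439.7 ± 41.5 and 685 ± 43.1 counts (SD, n = 4). The difference of -0.64 (SE 0.10, 95% interval -0.86 to -0.43, adjusted p = 0.000701) was the most precise of the list and stayed past the threshold under each alternative tried. It was -0.58 without NA4 and WT4 (adjusted p = 0.0250), -0.63 within the deeper libraries and -0.74 within the shallower ones. The gene lies at chr7:16781340-16798274 on the plus strand.

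Slc38a2 (SNAT2), a sodium-coupled carrier of glutamine and alanine that is itself induced when amino acids are short, had the highest level of the list. It had 1599, 2302, 2048 and 2122 counts in NA1 to NA4 and 1491, 1782, 1781 and 1682 in WT1 to WT4. NA1 lay among the WT libraries and the other NA libraries lay above them. The difference was 0.25 (SE 0.11, 95% interval 0.02 to 0.48, adjusted p = 0.118), and it passed without NA1 (0.36, adjusted p = 0.0160). Slc38a1 (SNAT1), its close relative, had 584, 465, 542 and 524 counts in NA and 443, 430.3, 531 and 479 in WT, and the difference was 0.17 (SE 0.11, 95% interval -0.06 to 0.40, adjusted p = 0.296). Both genes lie on the minus strand of chromosome 15, Slc38a1 at chr15:96571418-96642913 and Slc38a2 at chr15:96687392-96699730.

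Ranked by level per length in WT MPPs, Slc38a2 stood first at 275 counts per kb, before Slc1a5 at 244, Slc3a2 at 173, Slc38a1 at 64.8, Slc15a2 at 44.5, Slc15a4 at 39.9, Slc7a5 at 25.4, Slc7a1 at 8.76, Slc15a3 at 1.87 and Slc7a11 at 0.202. Library ranges of neighbours overlapped for Slc38a2 with Slc1a5, Slc1a5 with Slc3a2, Slc15a2 with Slc15a4, and Slc15a3 with Slc7a11, so those pairs are not ordered beyond their spread. In NA MPPs, the order was Slc38a2 at 329.9 counts per kb, Slc3a2 at 238, Slc1a5 at 157, Slc38a1 at 72.8, Slc15a4 at 29.6, Slc7a5 at 13.9, Slc15a2 at 10.8, Slc7a1 at 9.01, Slc15a3 at 2.41 and Slc7a11 at 0.183. Here the ranges of Slc38a2 and Slc3a2 overlapped, and Slc15a2 overlapped with both Slc7a5 and Slc7a1. Per length, Slc3a2 was at 0.560 to 0.976 times Slc1a5 in WT libraries and at 1.28 to 1.81 times in NA libraries. Slc38a2 was at 0.988 to 1.31 times Slc1a5 in WT libraries and at 1.63 to 2.54 times in NA libraries. Neither ratio overlapped between the groups. Both are divided by Slc1a5, whose own values fell without overlap, while those of Slc3a2 and Slc38a2 overlapped, so the ratios are no separate result.

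**Figure D2:**
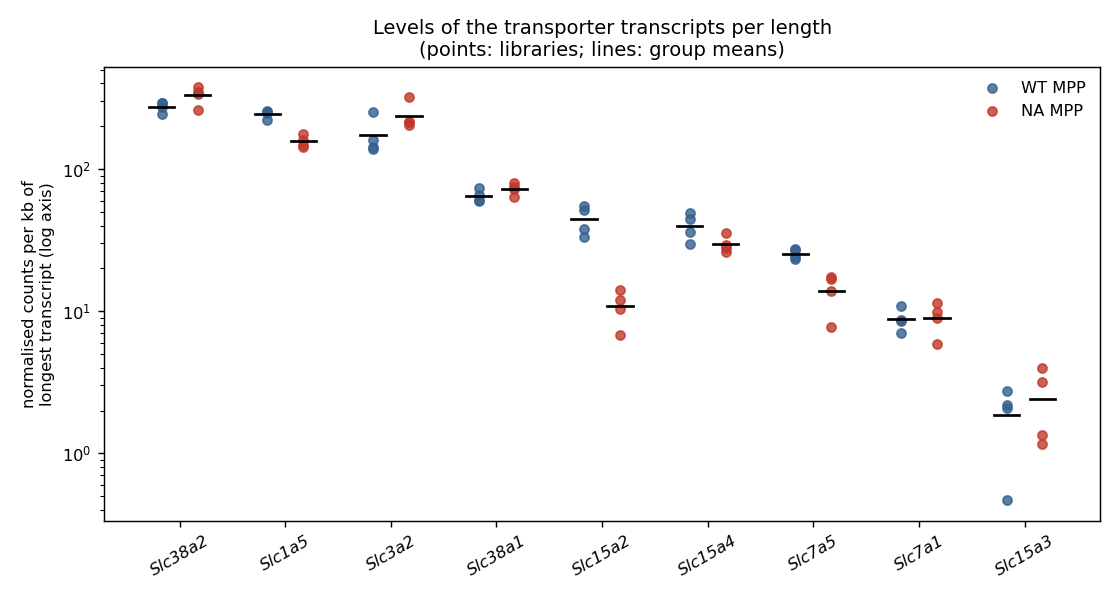
Level of 9 transporter genes per length (vertical axis, normalised counts per kb of the longest transcript, log axis), with a point for each library, WT MPP in blue, NA MPP in red and lines at the group means. Slc7a11 is left out because some libraries were at 0. Slc15a2 stood at 44.5 counts per kb in WT, next to Slc15a4 at 39.9, and at 10.8 in NA, next to Slc7a1 at 9.01.

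In all, 3 of the 9 tested genes of the list were called, all lower in NA, and Slc15a2, which was chosen for its difference, is 1 of these. Of all tested genes, 7.87% were called lower. The ranges of NA and WT did not overlap for the same 3 genes, while 22.0% of all tested genes had no overlap. The median difference of the 9 genes was 0.02, beside -0.01 over all tested genes, and 5 of the 9 had a difference above 0.

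Over the 8 libraries, the tested genes most like Slc15a2 on the log2 scale were Nup93, a scaffold protein of the nuclear pore, with Pearson r = 0.986, the mitochondrial dehydrogenase Hsd17b10 with r = 0.983, Zbtb45 with r = 0.981, Ppdpf with r = 0.980, and the Mediator subunit Med23 with r = 0.977. Nup93 had 32.9 to 49.5 counts in NA and 69.1 to 92.3 counts in WT. Of 11450 genes ranked, 221 had r above 0.9 and 322 had r below -0.9. The points share their libraries, their group difference and, for the X-linked Hsd17b10, the sex difference. With the group means taken out, r was 0.90 for Nup93, 0.85 for Hsd17b10, 0.81 for Zbtb45, 0.80 for Ppdpf and 0.76 for Med23. These genes were picked by r over the same libraries, so the values are a description only. Within the list, r with Slc15a2 was 0.95 for Slc1a5, 0.67 for Slc7a5, 0.66 for Slc15a4, -0.60 for Slc3a2 and -0.74 for Slc38a2.

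A list of 67 other transporters of peptides and amino acids was written from general knowledge, and 27 of these were tested. In NA MPPs 3 of the 27 rose and 2 fell, which is 18.5% called beside 17.9% of all genes, with a median difference of -0.12. Under scaling to the library total 1 was called higher and 4 lower, and without the variance trend 1 higher and 3 lower. With NA4 and WT4 left out, 1 was called, and 1 to 6 were called when 1 library at a time was left out, with 1 without NA4 or WT4, 2 without NA1, NA2 or WT2, and 3 without WT1 or WT3. Of the 67 genes, 27 had at most 3 estimated reads in every library and 19 of these had none, which include carriers of kidney, gut and neurons such as Slc6a19 and Slc7a9.

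Slc43a2 (LAT4), which carries leucine and other large neutral amino acids by facilitated diffusion, fell from 224 ± 45.3 counts in WT to 114 ± 18.2 in NA (SD, n = 4). It had 120.4, 132, 114 and 88.6 counts in NA1 to NA4 and 202, 292, 202 and 201 in WT1 to WT4, so no library of one group reached the other. The difference of -0.97 (SE 0.18, adjusted p = 0.00206) passed under each alternative tried. Its relative Slc43a1 (LAT3) had a difference of -0.65 that did not pass (adjusted p = 0.0638), and the partners of Slc3a2 Slc7a6 and Slc7a7 had differences of -0.05 (adjusted p = 0.862) and -0.03 (adjusted p = 0.936).

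Slc38a7, a glutamine and asparagine exporter of lysosomes, fell from 41.7 ± 11 to 19.2 ± 4.28 counts (-1.06, SE 0.32, adjusted p = 0.0352). Its call was lost without any one of NA1, NA2, NA4, WT2, WT3 or WT4 (adjusted p from 0.0554 to 0.103). Slc6a15, a carrier of branched-chain amino acids and proline, rose from 106 ± 13.8 to 162 ± 28.3 counts (0.60, SE 0.17, adjusted p = 0.0273), a call lost without NA1, NA4, WT1 or WT4 (0.0619 to 0.0856). The taurine transporter Slc6a6 rose from 309 ± 34.9 to 440.3 ± 81.0 counts (0.50, SE 0.14, adjusted p = 0.0276) and was not called without NA2, NA4, WT2, WT3 or WT4 (0.0511 to 0.0853). Sfxn3, a mitochondrial serine carrier, rose from 195 ± 24.1 to 274 ± 41.0 counts (0.48, SE 0.14, adjusted p = 0.0327) and was not called without NA1, NA2, NA4, WT1, WT2 or WT4 (0.0681 to 0.0896).

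**Figure D3:**
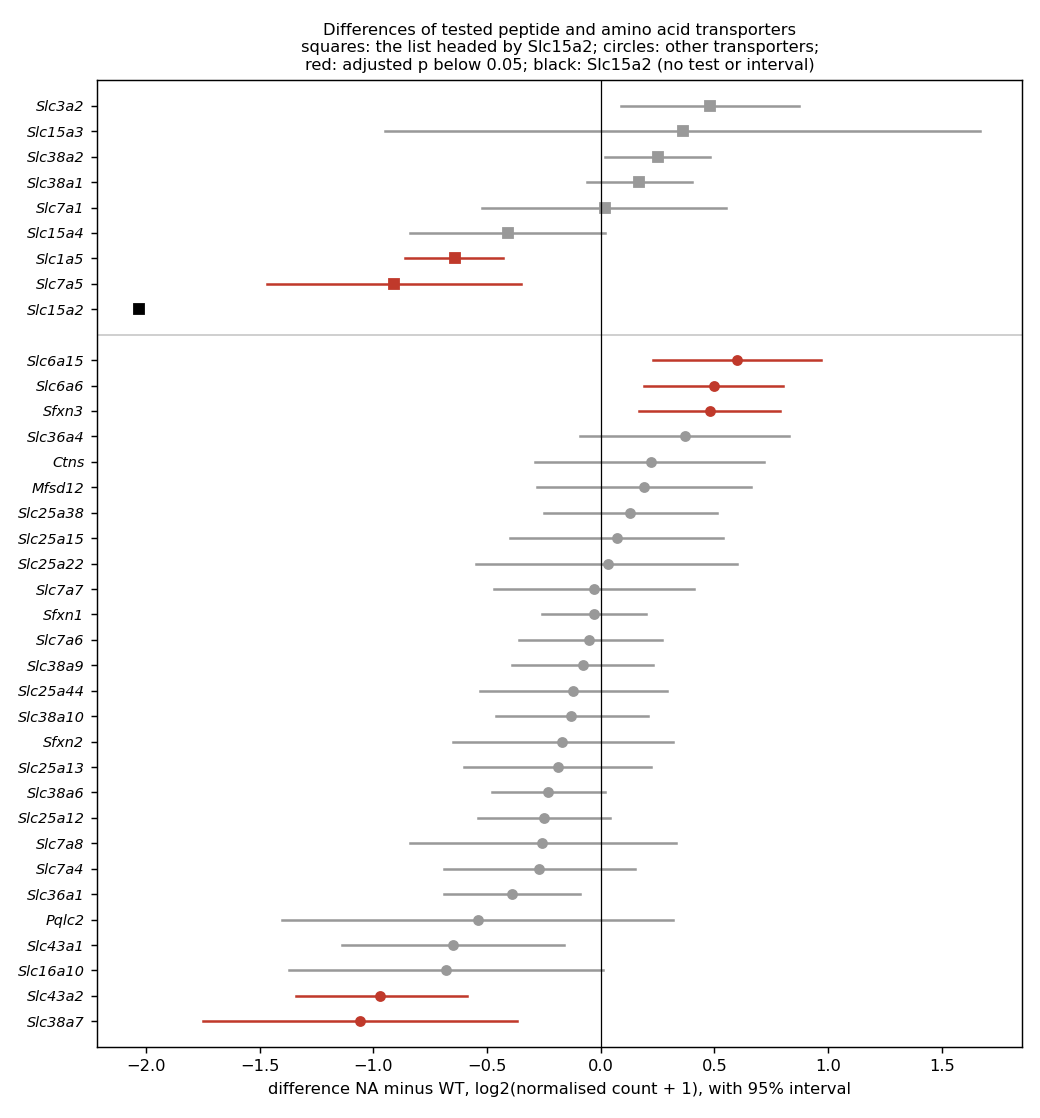
Differences between NA and WT MPPs for the 9 tested genes of the list headed by Slc15a2 (squares, upper block) and the 27 other transporters tested (circles, lower block), on the log2(normalised count + 1) scale, with 95% intervals from limma and red for an adjusted p below 0.05. Slc15a2 is drawn in black at -2.03 without an interval because it was chosen for this difference. The other called transporters lie between -1.06 (Slc38a7) and 0.60 (Slc6a15).

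The amino acid response, in which the kinase Gcn2 senses uncharged tRNA and Atf4 raises its targets, was followed in 28 genes that are not transporters. Of 23 tested, 4 rose and none fell (17.4% called, median difference 0.09). The share called was near the 17.9% of all tested genes, among which 10.1% were called higher. The C/EBP factor Cebpb rose from 44.1 ± 28.6 counts in WT to 112 ± 44.9 in NA (1.54, SE 0.47, adjusted p = 0.0352), the stress protein Nupr1 from 32.5 ± 6.95 to 86.2 ± 18.5 (1.38, SE 0.26, adjusted p = 0.00250), and the mitochondrial alanine aminotransferase Gpt2 from 14.2 ± 0.433 to 36 ± 6.98 (1.26, SE 0.32, adjusted p = 0.0149). Cebpg, a dimer partner of Atf4, rose from 185 ± 24.9 to 278 ± 32.6 counts (0.59, SE 0.14, adjusted p = 0.0117). Atf4 itself was at 1947 ± 455 counts in WT and 2586 ± 327 in NA, which did not pass (0.43, adjusted p = 0.0527). Asns, the asparagine synthetase that is its best known target, was at 86.1 ± 20.4 and 55.7 ± 17.4 (-0.64, adjusted p = 0.116). Atf3 had the largest difference of the list, at 208 to 424 counts in NA and 0 to 207 in WT, but did not pass (2.93, SE 1.20, adjusted p = 0.106). Ddit3 did not pass either (0.74, adjusted p = 0.0694). WT1 was the lowest WT library for Atf3, Ddit3 and Cebpb. Of the 23 differences, 13 were above 0 and 10 below. None of the 23 passed limma's adjusted p without NA4 and WT4. In that fit 7 of the 23 had an unadjusted p under 0.05, beside 2282 of all 11451 tested genes. The Cebpb call was also lost without NA2, NA3, NA4, WT1, WT3 or WT4 (0.0522 to 0.0886) and that of Gpt2 without NA4 (0.0684), when 2 of the 23 were called. Cebpb differed by 2.36 within the deeper and by 0.56 within the shallower libraries.

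Of the 20 cytosolic aminoacyl-tRNA synthetases, which load tRNA with the amino acids that these carriers bring in, all were tested and 15.0% were called beside 17.9% of all tested genes, 1 higher and 2 lower, with a median difference of -0.17. Vars, which loads valine, fell from 1104 ± 133 to 799 ± 90.6 counts (-0.47, SE 0.11, adjusted p = 0.00961), and Wars, which loads tryptophan, from 321 ± 30.5 to 234 ± 35.1 (-0.46, SE 0.13, adjusted p = 0.0268). Hars, which loads histidine, rose from 183 ± 3.58 to 258 ± 31.6 (0.48, SE 0.13, adjusted p = 0.0185). Wars was not called without NA2, NA4, WT1, WT2 or WT4 (0.0519 to 0.0889) and Hars not without NA2, NA4 or WT4 (0.0503 to 0.0623), when 1 synthetase was called. None of the 20 passed limma's adjusted p without NA4 and WT4. In that fit 3 of the 20 had an unadjusted p under 0.05, beside 2282 of all 11451 tested genes.

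The machinery that reports amino acids to mTORC1 at the lysosome had 33 genes, all tested. None rose and 3 fell (9.09% called, median difference -0.12). Of all tested genes 17.9% were called and 7.87% were called lower, so the share of falls in this list was near that of all genes. Lamtor4 and Lamtor1, subunits of the Ragulator complex that anchors the Rag GTPases, fell from 232 ± 28.8 to 132 ± 29.3 counts (-0.83, SE 0.18, adjusted p = 0.00592) and from 222 ± 14.5 to 143 ± 27.2 counts (-0.65, SE 0.16, adjusted p = 0.0117). Mlst8, a subunit of the kinase complex, fell from 62.0 ± 13.1 to 34.3 ± 8.40 (-0.84, SE 0.27, adjusted p = 0.0454), a call lost without NA1, NA2, NA4, WT1, WT3 or WT4 (0.0704 to 0.134). The lysosomal arginine sensor Slc38a9 had a difference of -0.08 that did not pass (adjusted p = 0.731). None of the 33 passed limma's adjusted p without NA4 and WT4. In that fit 4 of the 33 had an unadjusted p under 0.05, beside 2282 of all 11451 tested genes.

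Slc15a3 and Slc15a4 serve the NOD and endosomal Toll-like receptor pathways in immune cells, and 15 genes of these pathways were followed, of which 12 were tested. In NA MPPs 1 of the 12 rose and 1 fell (16.7% called beside 17.9% of all tested genes, median difference -0.06). Under scaling to the library total 1 was called higher and 4 lower. Irf7, the interferon regulatory factor downstream of these receptors, fell from 318 ± 27.7 to 142 ± 26.4 counts (-1.18, SE 0.15, adjusted p = 0.000147). Unc93b1, which escorts Toll-like receptors to endosomes, rose from 106 ± 44.2 to 176 ± 26.3 counts (0.80, SE 0.24, adjusted p = 0.0317), a call lost without NA1, NA3, NA4, WT1, WT3 or WT4 (0.0569 to 0.0810). Without NA3, NA4, WT1 or WT4, or without both NA4 and WT4, 1 of the 12 was called. Tasl (listed as 5430427O19Rik), the adaptor that binds Slc15a4, was at 149.9 ± 35.6 counts in WT and 102 ± 24.0 in NA, which did not pass (-0.56, adjusted p = 0.0806). The gene is X-linked, and the groups differ in sex.

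Enzymes that use the carried glutamine, arginine and cystine had 30 genes, of which 25 were tested, 3 rose and 5 fell (32.0% called beside 17.9% of all tested genes, median difference 0.10). Cad, which starts pyrimidine synthesis from glutamine, fell from 202 ± 7.46 to 84.7 ± 18.5 counts (-1.27, SE 0.18, adjusted p = 0.000279), while Ppat, which starts purine synthesis from glutamine, rose from 110.1 ± 17.3 to 215 ± 30.7 (0.96, SE 0.16, adjusted p = 0.00135). The spermidine synthase Srm fell from 454 ± 37.8 to 299.5 ± 46.9 (-0.61, SE 0.12, adjusted p = 0.00433), and Sat1, which acetylates polyamines and lies on the X chromosome, rose from 927 ± 148 to 1529.9 ± 34.5 (0.73, SE 0.10, adjusted p = 0.000264). Gsr, the glutathione reductase, showed the largest difference of the enzymes, from 107 ± 26.1 counts in WT to 428 ± 60.4 in NA (2.01, SE 0.17, adjusted p = 4.39e-06).

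Ggt5, which cleaves glutathione compounds outside the cell, fell from 141 ± 34.7 to 80.1 ± 21.7 counts (-0.81, SE 0.23, adjusted p = 0.0234), and Ass1, an enzyme of arginine synthesis, from 76.1 ± 11.4 to 45.5 ± 6.10 (-0.73, SE 0.22, adjusted p = 0.0354). The Ggt5 call was lost without NA2, NA4, WT3 or WT4 (0.0523 to 0.0677) and the Ass1 call without any single library but NA3 (0.0542 to 0.0886). The fifth fall was that of the antizyme gene Oaz1 (-0.25, adjusted p = 0.0454), which is named here after its value was seen. The other polyamine genes of the list, Odc1, Sms, Amd1 and Azin1, did not pass, with adjusted p from 0.274 to 0.499. Without NA4 and WT4, 4 enzymes were called, and 5 without any one of NA2, NA4, WT3 or WT4.

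A list of peptidases that cut di- and oligopeptides, of which Slc15a2 carries only di- and tripeptides, had 16 genes, all tested. There were 1 rise and 2 falls (18.8% called beside 17.9% of all tested genes, median difference -0.12). The aminopeptidase Rnpep fell from 185 ± 3.37 to 104 ± 17.1 counts (-0.85, SE 0.16, adjusted p = 0.00292) and the bleomycin hydrolase Blmh from 144 ± 5.58 to 80.4 ± 13.6 (-0.85, SE 0.17, adjusted p = 0.00476). The puromycin-sensitive aminopeptidase Npepps rose from 129 ± 20.4 to 189 ± 33.2 (0.55, SE 0.17, adjusted p = 0.0409), a call lost without NA2, NA3, NA4, WT1, WT3 or WT4 (0.0757 to 0.114). Of the 16, only Rnpep was called without NA4 and WT4.

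**Figure D4:**
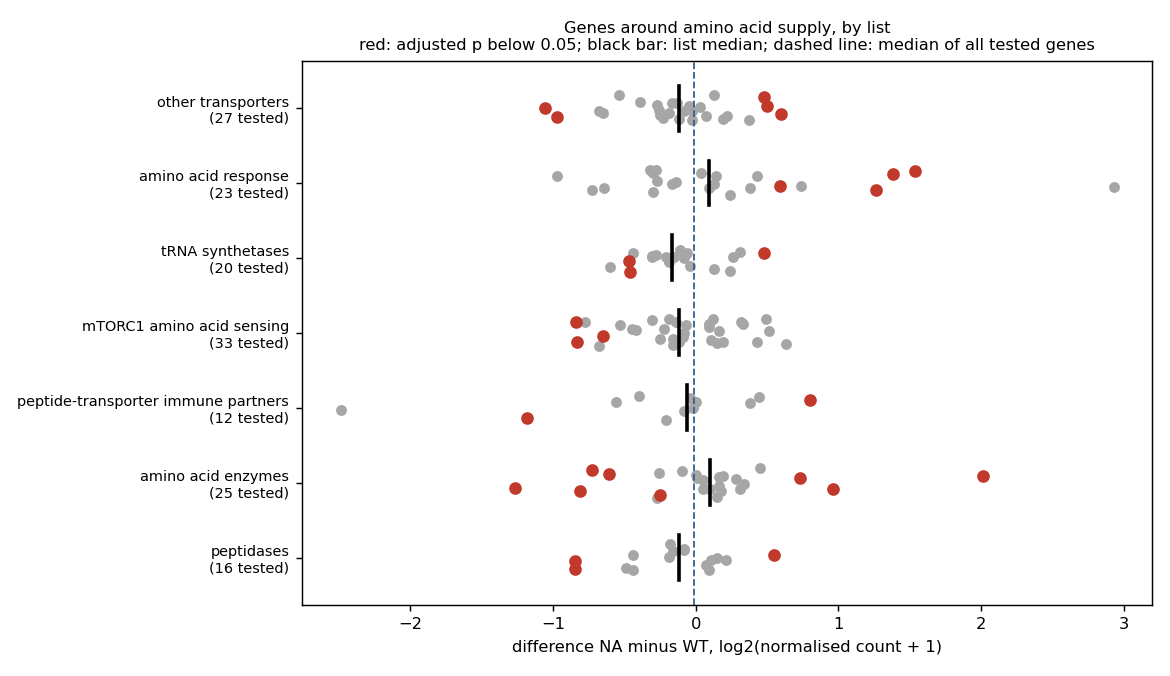
Differences between NA and WT MPPs on the log2(normalised count + 1) scale (horizontal axis) for each tested gene of 7 lists around amino acid supply, in red where the adjusted p was below 0.05, with a black bar at each list's median and a dashed line at the median of all tested genes (-0.01). List medians lie between -0.17 (tRNA synthetases) and 0.10 (amino acid enzymes), and called genes reach from -1.27 (Cad) to 2.01 (Gsr).

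Markers of the sort and of other blood cells were read beside these results. Only some were tested: 4 of the 9 neutrophil markers, 4 of the 11 monocyte, macrophage and dendritic cell markers, 3 of the 11 erythroid and 6 of the 7 megakaryocyte markers. Of all tested genes 17.9% were called, and 7.87% were called lower. Kit, Flt3, Cd34 and Ptprc did not pass the test, and the Sca1 gene Ly6a fell by 0.28 on the log2 scale (adjusted p = 0.0257). The 9 neutrophil markers summed to 1390.3 to 1709 counts in NA and 1749.8 to 2629 in WT, with Mpo and Prtn3 called lower and Elane and Mmp8 at 0 reads in every library. The 11 monocyte, macrophage and dendritic cell markers summed to 1876 to 1923 counts in NA and 2021 to 2291 in WT, with Irf8 called lower and Itgax at 3 reads or fewer. The 11 erythroid markers summed to 4655 to 5341 counts in NA and 4842 to 5069 in WT, of which Car2 alone gave 4470.4 to 5131 in NA and 4472 to 4626 in WT. Among the others, Hbb-bt was called lower, at 28.3 to 56.4 counts in NA against 131 to 185 in WT. Tfrc had 133 to 182 counts in NA and 190.0 to 266 in WT (adjusted p = 0.0634), and Car1, which was not tested, had 0 in every NA library and 1.13 to 71.9 counts in WT. Epor and Klf1 reached at most 2.77 and 6.53 counts in an NA library and 14.7 and 26.6 in a WT library, and Slc4a1 was at 0 in both groups. The 7 megakaryocyte markers summed to 2795 to 3089 counts in NA and 2616 to 2771 in WT, with none called.

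The 8 B cell markers summed to 101 to 239 counts in NA and 182 to 269 in WT. The 8 T and NK cell markers summed to 137 to 161 in NA and 129 to 148 in WT. Only 1 B cell marker and 2 T and NK cell markers had enough signal to be tested, and none of these was called. Among the markers of both lists, Ms4a1, Pax5 and Igll1 for B cells and Cd3e, Cd3d, Cd3g, Trac, Cd8a and Ncr1 for T and NK cells were at 0 reads in every library. The 6 mast cell and basophil markers summed to 17.9 to 26.1 counts in NA and 1.14 to 19.5 in WT, with Mcpt8, Prss34 and Fcer1a at 0. The part of the myeloid, erythroid and megakaryocyte markers in the transporter differences was not tested.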

How the data were processed

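RNA-seq was made from 4 NA and 4 WT aliquots of 1000 MPPs, and the titles of the samples gave the groups. After bcl2fastq, RSEM and DESeq2 were the tools by which the authors quantified, normalised and tested genes, and the submitters' processing notes name build mm10. Tool versions, annotation and strand use are not given in the sources used here. The deposited values were labelled raw counts but were treated here like a normalised signal. They appear to be RSEM's expected counts after scaling with a single size factor for every library. This was inferred from the values and is not stated by the authors. Low values came in steps of 0.888 to 1.18, with 98.5% to 99.1% of them at whole multiples, and dividing by this step gave the estimated reads, used only for depth and for floors of 3 reads, which cover counting error only. The cDNA was amplified without molecular identifiers. All 8 columns were matched to samples, and 0 columns were left unused. A count model on rounded counts was not run because fractional reads remained.

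Symbols, coordinates and longest transcript lengths came from GENCODE M21 (GRCm38), which named 32916 of 37980 rows, and the rows without a symbol held 0.779% of the summed values. The 11451 genes that reached 10 normalised counts in 4 or more of the 8 libraries were compared on log2(normalised count + 1) by limma 3.58.1 (R 4.3.3), without covariates and with a variance trend. Adjusted p-values are two-sided Benjamini-Hochberg values over all tested genes, with a threshold of 0.05. The added 1 understates the changes of low genes. Intervals are 95% intervals of the fit. Tables and figures were made with Python 3.11.15 and pandas 2.3.3.

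The list of 10 genes, the other 7 lists and the tests were chosen with earlier results of these data known, and the lists other than the 10 came from general knowledge. The text names all 10 genes, up to 4 called rises and 4 called falls from each other list by size, the 5 genes with the highest Pearson r with Slc15a2, and checks of the fusion, the sex of the donors and cell types. Values of other genes are named where a sentence turns on them and were chosen after they were seen. Alternatives were other pseudocounts (0.5 and 5), filters (none, and a mean of 50) and scalings, a fit without the variance trend, depth class or replicate number as a covariate, and leaving out libraries.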

Additional observations from a re-analysis of the deposited data

Results flagged for a closer look

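Of 74 groups of 4 libraries examined, 8 held a library far from the other 3 past Dixon's 95% critical value. The nominal rate for independent normal values would give 3.70. The groups share the same libraries, and most of their genes were named because they were called, so 3.70 is no valid expectation for them. Among the transporters of the list, Slc3a2 had 897 normalised counts in NA3 against 577 to 604 in the other NA libraries, and Slc7a11 had 5.66 counts in WT2 against 0 to 0.888 in the other WT libraries. The leucine carrier Slc43a2 had 292 counts in WT2 against 201 to 202 in the other WT libraries. NA3 was also high for the synthetase Wars, with 286 counts against 213 to 220.3, and for the spermidine synthase Srm, with 369 counts against 270.5 to 284. Ggt5 had 192 counts in WT3 against 120.0 to 129.6, Lamtor1 had 201 counts in WT1 against 226 to 232, and Rnpep had 78.0 counts in NA2 against 109.9 to 113.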

How the results depend on the processing

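For the tested genes of the list, 145 of 161 alternative values kept their direction and side of the threshold, 7 lost the call, 3 gained one and 6 changed sign. With 1 library left out at a time, Slc15a3 ranged from -0.12 to 0.62 and Slc7a1 from -0.11 to 0.21. All sign changes were in genes that were not called: Slc15a3 was -0.12 without WT3, and Slc7a1 was -0.05 under scaling to the library total, -0.03 with depth class as a covariate, and -0.11, -0.04 and -0.08 without NA2, NA3 and WT3. Slc7a5 lost its call with no filter on low values (adjusted p = 0.0642) and with depth class as a covariate (0.0571), besides the libraries named with its result. Of 483 values of the 27 other named genes, 371 stayed as they were, 112 lost the call and 0 changed sign. In this set 7 genes (Slc43a2, Irf7, Cad, Gsr, Ppat, Sat1 and Rnpep) were called under every alternative, and the same 7 without NA4 and WT4.

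Without NA4 and WT4, 524 genes were called instead of 2053, with 1 other transporter, 0 amino acid response genes, 0 tRNA synthetases, 0 mTORC1 genes, 1 immune partner, 4 amino acid enzymes and 1 peptidase, and fewer libraries entered that fit. With no filter, and likewise with depth class as a covariate, 2 other transporters and 1 immune partner were called. Without the variance trend it was 1 tRNA synthetase and 1 immune partner, and under scaling to the library total 5 immune partners, 4 of them lower. The cause of these shifts was not tested. With 1 library left out at a time, 1125 to 2176 genes were called (1125 without NA4 and 1279 without WT4), 2 to 4 of the list headed by Slc15a2, 1 to 6 other transporters, 2 to 6 amino acid response genes, 1 to 4 tRNA synthetases, 2 to 4 mTORC1 genes, 1 to 3 immune partners, 5 to 10 amino acid enzymes and 2 to 3 peptidases. Counts of genes with few reads, such as Slc15a3 and Slc7a11, are limited by depth.

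NA and WT libraries share replicate numbers. Deviations of same-numbered libraries had correlations of 0.0874, 0.0271, 0.0131 and 0.158, and those of different-numbered libraries ran from -0.0943 to 0.101. Whether libraries of the same number were paired cannot be told from so few values. With the replicate number as a block, 2004 genes were called, 7 amino acid response genes passed instead of 4, and Slc38a2 passed (adjusted p = 0.0471). The planned count models on recovered reads were not run, since fractional reads remained in the values.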
